A study of Mus musculus with 15 samples.

Results

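The 36 genes described here encode enzymes, transporters and switches of glycolysis and gluconeogenesis. They were chosen by name, from a list of 37 symbols, out of 23866 genes counted in mouse kidney. The remaining symbol, Pkm2, is an older name of Pkm, which has a row. All 36 passed the filter on low counts.

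Kidneys came from male C57BL/6 mice, given by the labels without an age, and RNA was sequenced from 14 libraries. Olive oil mice (3 libraries) received the vehicle by intraperitoneal injection for 6 weeks. The CCl4 group (4 libraries) received carbon tetrachloride, a solvent that injures liver and kidney, by the same route for 6 weeks, and replicates 3 and 4 of this group continued at a reduced dose for another 4 weeks. EtOH mice (4 libraries) received olive oil for 6 weeks and then ethanol for 4 weeks. CCl4+EtOH mice (3 libraries) received CCl4 for 6 weeks and then ethanol for 4 weeks, and their titles repeat CCl4 before EtOH, so CCl4 in the ethanol weeks cannot be settled from the labels. The labels give 6 weeks for olive oil and 10 weeks in all for both ethanol groups, so ethanol and the longer course cannot be told apart against olive oil. They do not state that libraries came from separate mice, so p-values measure the spread between these samples, which may be in part technical.

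Glycolysis splits glucose to pyruvate, and its committed steps are catalysed by hexokinase, phosphofructokinase and pyruvate kinase. Gluconeogenesis runs the reversible middle steps backwards and bypasses the committed ones with pyruvate carboxylase, PEP carboxykinase, fructose bisphosphatase and glucose-6-phosphatase. In the kidney, gluconeogenesis belongs to the proximal tubule, which burns fat and lactate and makes glucose, while the distal nephron and medulla rely on glycolysis.

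Levels are given as CPM (the authors' counts scaled to library size by TMM, per M) in the order of replicates from 1 upward, with means ± SD. Changes are log2 fold changes ± SE from edgeR's quasi-likelihood test, with adjusted p by Benjamini-Hochberg over 16105 genes and a threshold of 0.05. Library totals ran from 16356512 to 23545275 counts. In a principal component analysis the leading axis held 43.7% of the variance. The scores of CCl4+EtOH were 90.7 (replicate 1), 88.2 (replicate 2) and 29.1 (replicate 3), and those of the 11 libraries of other groups ran from -27.6 to -9.96. Proximal tubule markers (10 of 10 with a row, none at 0) summed to 20328 to 23337 CPM after olive oil, and to 8574, 7315 and 18076 CPM in CCl4+EtOH replicates 1, 2 and 3. Injured tubule markers summed to 36993, 26917 and 4626 CPM in these and to 680.2 to 1185 CPM after olive oil. Adrenal markers, a sign of tissue next to the kidney, summed to 882, 747 and 1194 CPM in EtOH replicates 1 to 3 and to 9.19 CPM in replicate 4, against 6.77 to 8.27 CPM after olive oil, where Cyp11b1, Th, Dbh and Pnmt were at 0. The markers' part in the results below was not tested, and in bulk tissue fewer cells of a type and less RNA per cell cannot be told apart.

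In CCl4+EtOH vs olive oil 7 members rose and 7 fell. Of 8 genes of the committed glycolytic steps 3 rose and 1 fell, with a median log2 change of 0.50, and of 7 genes used only by gluconeogenesis 2 rose and 2 fell, with a median of -0.66. Hk2, Pfkp, Pklr, Eno2, Slc16a3, Pck2 and Fbp2 were higher, and Khk, Slc37a4, Fbp1, Pdk2, Pfkm, Pfkfb4 and Pgk1 were lower. The 14 calls are 38.9% of members, against 35.4% of all genes tested in that comparison (18.9% higher and 16.6% lower), so the number of calls is near the background and is not a result about these genes. Their median log2 change was -0.06, beside 0.02 over all genes. Libraries of the groups did not overlap for 19 of 36 members, or 52.8%, and for 43.7% of all genes.

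Without CCl4+EtOH replicate 3, which stood apart, 7 members rose and 13 fell, 13 of the 14 calls were kept, and the background was 45.2%. Without olive oil replicates 2 or 3 the lower calls numbered 3 and 4, at backgrounds of 26% and 26.7%. Fbp1, Pdk2 and Pgk1 were lost both times, Pfkfb4 without replicate 2 and Fbp2 without replicate 3. Without CCl4+EtOH replicates 1 or 2 the lower calls numbered 3 each, at a background of 24%, and Fbp1, Pdk2, Pfkm and Pgk1 were lost. The fit of only the groups compared, at a background of 21%, lost Pfkp, Pfkm, Fbp1, Fbp2, Pdk2 and Pgk1. With the title number, low or high, as a block, 4 rose and 2 fell at a background of 19.2%. All olive oil libraries have low numbers and all CCl4+EtOH libraries high ones, so this block rests on the CCl4 and EtOH libraries. In the CCl4 group the low numbers are replicates 1 and 2, with 6 weeks, and the high ones replicates 3 and 4, with 10 weeks. The block and the CCl4 schedule therefore cannot be told apart. In the EtOH group only replicate 1 has a low number. The calls kept with it were those of Khk, Slc37a4, Pklr, Pck2, Eno2 and Fbp2. Calls were lost for Hk2, Pfkp, Slc16a3, Fbp1, Pdk2, Pfkm, Pfkfb4 and Pgk1, with adjusted p of 0.0662 for Pfkp to 0.343 for Pfkfb4. Without EtOH replicates 1 to 3 the calls of Fbp1 (adjusted p = 0.0508) and Pgk1 (adjusted p = 0.0511) were lost.

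CCl4 alone and EtOH alone moved none of these genes past the threshold in edgeR. In CCl4 vs olive oil edgeR called 0 of 36 members, at a background of 0% of all genes, with 3 at an unadjusted p under 0.05 and 0 called by DESeq2 or limma-voom. In EtOH vs olive oil edgeR called 0 of 36, at a background of 0.168% (0.0807% higher and 0.0869% lower), with 4 at an unadjusted p under 0.05. DESeq2 and limma-voom each called 2 members there, Eno1 as higher and Pfkfb4 as lower. Their backgrounds were higher than edgeR's, at 2.17% of all genes with DESeq2 and 1.56% with limma-voom.

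**Figure D1:**
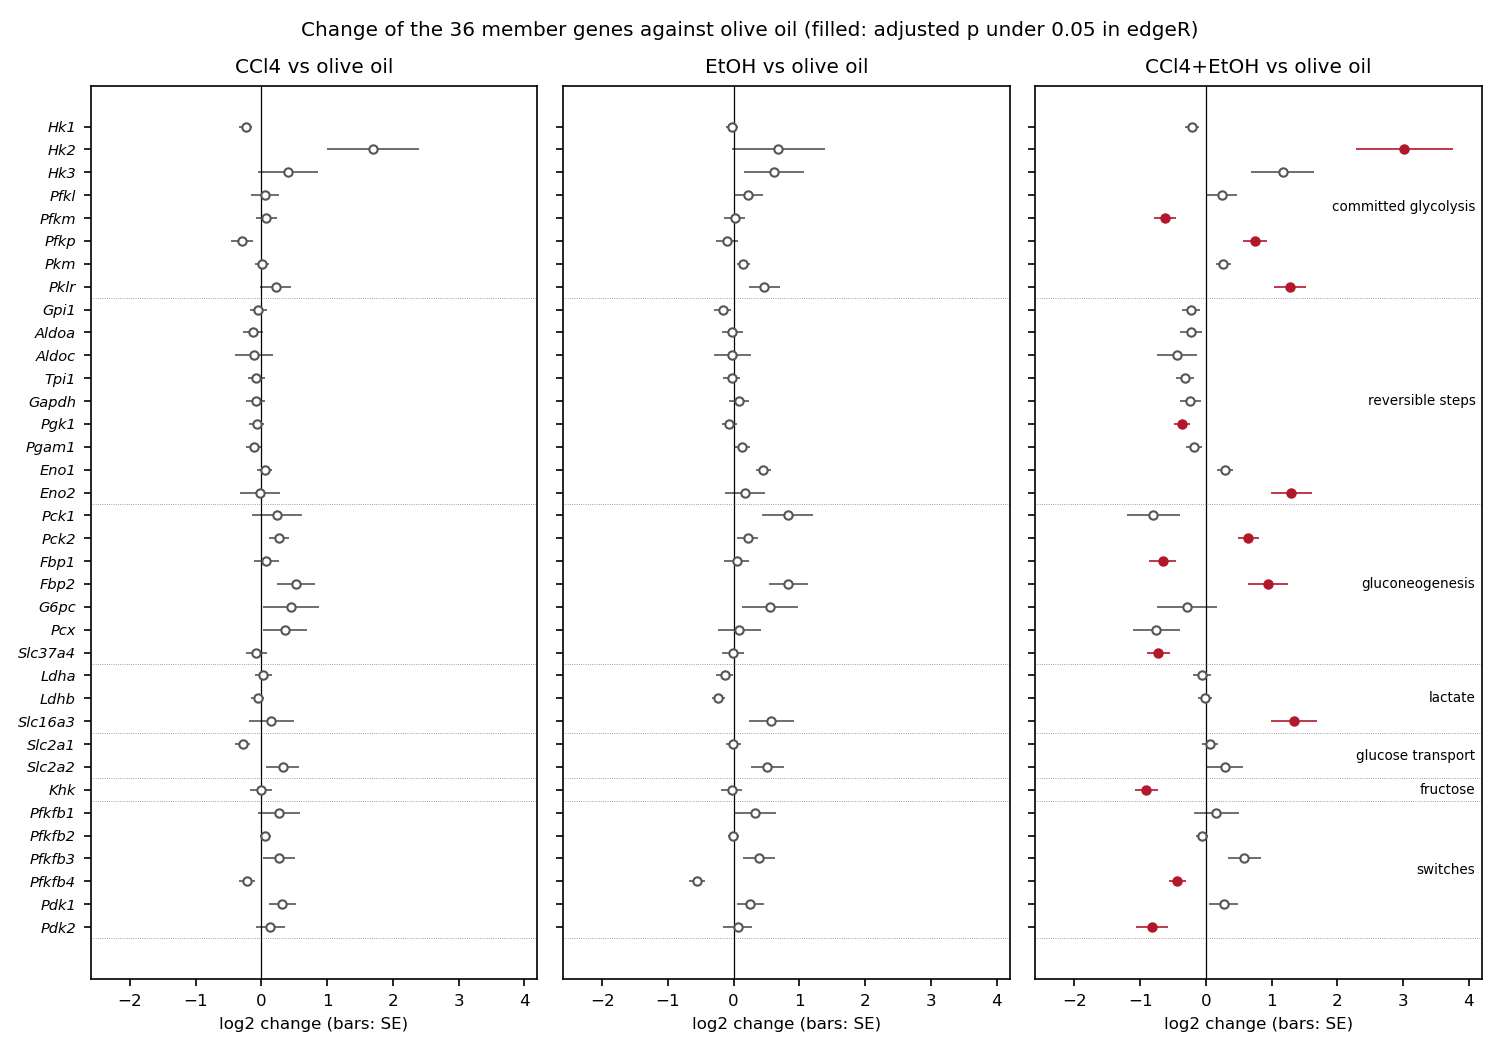
Log2 change of each of the 36 genes (rows, grouped by role) in 3 comparisons that share the olive oil libraries, with SE as bars and filled red points for adjusted p under 0.05. Filled points appear only in CCl4+EtOH vs olive oil, 7 to the right of 0 and 7 to the left.

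Start regions of 4 members are printed because Hk2 and Slc16a3 rose most, Khk fell most, and Pck1 ranged from 1652 to 4513 CPM within the olive oil group alone. The windows cover 250 bases before to 50 after the RefSeq start of the gene in build GRCm38.p6, while the counts were made on mm9, and all 36 members matched by symbol. Hk2 lies at chr6:82774405-82774704 (minus strand), Slc16a3 at chr11:120948817-120949116 (plus strand), Khk at chr5:30921309-30921608 (plus strand) and Pck1 at chr2:173152823-173153122 (plus strand). Capitals mark ACGTG, the core of the hypoxia response element, or TGACGT, the core of the cAMP response element, on either strand.
Hk2: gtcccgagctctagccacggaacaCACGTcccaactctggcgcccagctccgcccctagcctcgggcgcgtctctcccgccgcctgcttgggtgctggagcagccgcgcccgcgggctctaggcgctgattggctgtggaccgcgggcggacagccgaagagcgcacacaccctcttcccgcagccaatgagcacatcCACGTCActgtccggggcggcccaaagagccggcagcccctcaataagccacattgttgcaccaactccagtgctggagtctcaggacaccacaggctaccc
Slc16a3: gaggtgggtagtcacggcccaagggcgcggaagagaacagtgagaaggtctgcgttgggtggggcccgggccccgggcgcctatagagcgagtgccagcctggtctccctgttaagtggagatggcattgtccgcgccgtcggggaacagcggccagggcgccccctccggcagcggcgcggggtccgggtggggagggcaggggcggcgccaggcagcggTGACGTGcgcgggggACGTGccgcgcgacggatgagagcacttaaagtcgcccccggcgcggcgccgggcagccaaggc
Khk: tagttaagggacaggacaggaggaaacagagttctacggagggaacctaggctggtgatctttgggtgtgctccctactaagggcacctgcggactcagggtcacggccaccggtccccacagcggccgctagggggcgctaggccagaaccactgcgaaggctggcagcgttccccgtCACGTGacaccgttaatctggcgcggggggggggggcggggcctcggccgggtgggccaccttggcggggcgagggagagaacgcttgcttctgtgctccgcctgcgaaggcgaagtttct
Pck1: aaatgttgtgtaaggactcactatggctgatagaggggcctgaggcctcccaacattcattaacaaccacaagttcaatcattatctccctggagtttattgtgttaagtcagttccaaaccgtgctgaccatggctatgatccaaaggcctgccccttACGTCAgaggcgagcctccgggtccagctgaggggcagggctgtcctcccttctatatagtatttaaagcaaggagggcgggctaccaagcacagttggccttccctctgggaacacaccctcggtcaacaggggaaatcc

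The 2 motifs overlap in Hk2 and Slc16a3, and the match in Khk is the palindrome CACGTG, which holds ACGTG on both strands. ACGTG or its reverse CACGT stood in 23 of 59 windows of the 36 members, some of which have several overlapping windows, or 39.0%, and in 19.6% of all 32851 windows. Among windows of members that rose it stood in 3 of 8, and among those that fell in 5 of 13, so the core is found on both sides. TGACGT or ACGTCA stood in 8 of 59 member windows, or 13.6%, and in 7.51% of all windows, Pck1 and Slc37a4 among them. A match is a description of the letters only.

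Hexokinase traps glucose in the cell, and of its 3 isozymes here Hk2 passed the test. Hk2, the inducible isozyme, stood at 3.81, 1.28 and 1.57 CPM after olive oil, 2.23, 2.81, 18.8 and 4.68 after CCl4, 3.62, 4.70, 3.33 and 2.28 after EtOH, and 21.9, 21.4 and 9.88 after CCl4+EtOH. All 3 CCl4+EtOH libraries lay above all olive oil and EtOH libraries, while CCl4 replicate 3 stood far above the rest of its group and inside the CCl4+EtOH range. Hk2 rose in CCl4+EtOH vs olive oil by 3.02 ± 0.73 (SE, adjusted p = 0.00722). With the title number block its log2 change was 1.81 with an adjusted p of 0.147. In CCl4 replicate 3 adipocyte markers summed to 538.6 CPM and macrophage markers to 520.7 CPM, against 173.6 to 252 and 198.6 to 331.5 CPM in the other CCl4 libraries. The part of these markers' cells in the Hk2 value was not tested.

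Hk1, the constitutive isozyme, was present at 186, 165 and 156 CPM after olive oil, 162, 147, 128 and 135 after CCl4, 160.2, 184, 163 and 157 after EtOH, and 141, 146 and 150.1 after CCl4+EtOH. The CCl4+EtOH libraries lay just below those of olive oil, with a log2 change of -0.21 ± 0.10 (SE, adjusted p = 0.117) that did not pass. Hk3, an isozyme of myeloid cells, ranged from 0.79 to 1.68 CPM after olive oil and 2.78 to 3.15 CPM after CCl4+EtOH, at 1.17 ± 0.47 (SE, adjusted p = 0.069). Macrophage markers (9 of 10 with a row) summed to 228.4 to 341.4 CPM after olive oil and 609.3 to 849 CPM after CCl4+EtOH. Per kilobase of transcript, Hk1 made up 97.4 to 98.8% of the summed level of the 3 isozymes after olive oil and 87.1 to 92.7% after CCl4+EtOH, where Hk2 took 4.73 to 10.5%.

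Phosphofructokinase, the main control point of glycolysis, is encoded by a liver, a muscle and a platelet gene. Pfkp rose and Pfkm fell in CCl4+EtOH vs olive oil. Pfkp, the platelet type, stood at 108, 85.8 and 56.6 CPM after olive oil, 68.5, 62.5, 74.9 and 66.4 after CCl4, 81.1, 88.3, 72.5 and 69.3 after EtOH, and 151, 148 and 118 after CCl4+EtOH. The CCl4+EtOH libraries were above every other library. Pfkp rose by 0.74 ± 0.18 (SE, adjusted p = 0.00661) against olive oil, by 0.84 ± 0.17 (SE, adjusted p = 0.00228) against EtOH and by 1.03 ± 0.17 (SE, adjusted p = 0.000629) against CCl4. The call against olive oil was lost in the fit of only the groups compared and with the title number block.

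Pfkm, the muscle type, stood at 81.6, 87.8 and 85.2 CPM after olive oil, 95.3, 91.5, 86.6 and 83.3 after CCl4, 96.6, 74.3, 89.6 and 82.6 after EtOH, and 40.8, 48.6 and 76.1 after CCl4+EtOH. CCl4+EtOH replicates 1 and 2 were lower than every other library, while replicate 3 lay just under the lowest olive oil value. Pfkm fell in CCl4+EtOH vs olive oil, at -0.62 ± 0.17 (SE, adjusted p = 0.0129). That call was lost in the fit of only the groups compared, with the title number block and without CCl4+EtOH replicates 1 or 2. Pfkl, the liver type, was at 94.3, 86.6 and 72.9 CPM after olive oil, 91.8, 82.3, 100 and 77.8 after CCl4, 118, 102, 87.3 and 87.5 after EtOH, and 66.3, 85.2 and 149 after CCl4+EtOH. Its CCl4+EtOH libraries lay both below and above the olive oil range, and its log2 change of 0.24 ± 0.23 (SE, adjusted p = 0.438) did not pass. Per kilobase, the share of Pfkp among the 3 genes was 21.8 to 32.6% after olive oil and 30.0 to 53.3% after CCl4+EtOH, so the ranges overlapped, and that of Pfkm was 35.6 to 47.1% and 20.7 to 27.9%.

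Pyruvate kinase closes glycolysis. Pklr, the liver and red cell gene, which the proximal tubule also uses, stood at 38.4, 41.0 and 44.0 CPM after olive oil, 55.3, 51.6, 40.5 and 43.8 after CCl4, 52.4, 43.5, 73.6 and 58.0 after EtOH, and 143, 92.8 and 63.9 after CCl4+EtOH. It was higher in CCl4+EtOH than in olive oil without overlap, at 1.28 ± 0.25 (SE, adjusted p = 0.00194), and replicate 3 lay inside the EtOH range. Pkm, the gene of the M isoforms, stood at 238, 219 and 195 CPM after olive oil, 231, 229.8, 232 and 180.0 after CCl4, 260.3, 240.0, 226 and 238 after EtOH, and 268, 256 and 258.8 after CCl4+EtOH. Its CCl4+EtOH libraries were above those of olive oil, with a log2 change of 0.26 ± 0.11 (SE, adjusted p = 0.0745) that did not pass. Counts per gene do not separate the M1 and M2 splice forms. Per kilobase, Pklr made up 11.9 to 15.9% of pyruvate kinase after olive oil and 17.2 to 30.9% after CCl4+EtOH. Red cell markers summed to 1728 to 2358 CPM after olive oil and to 810.2, 474.4 and 5888 CPM in CCl4+EtOH replicates 1 to 3, and their part in the Pklr values was not tested.

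**Figure D2:**
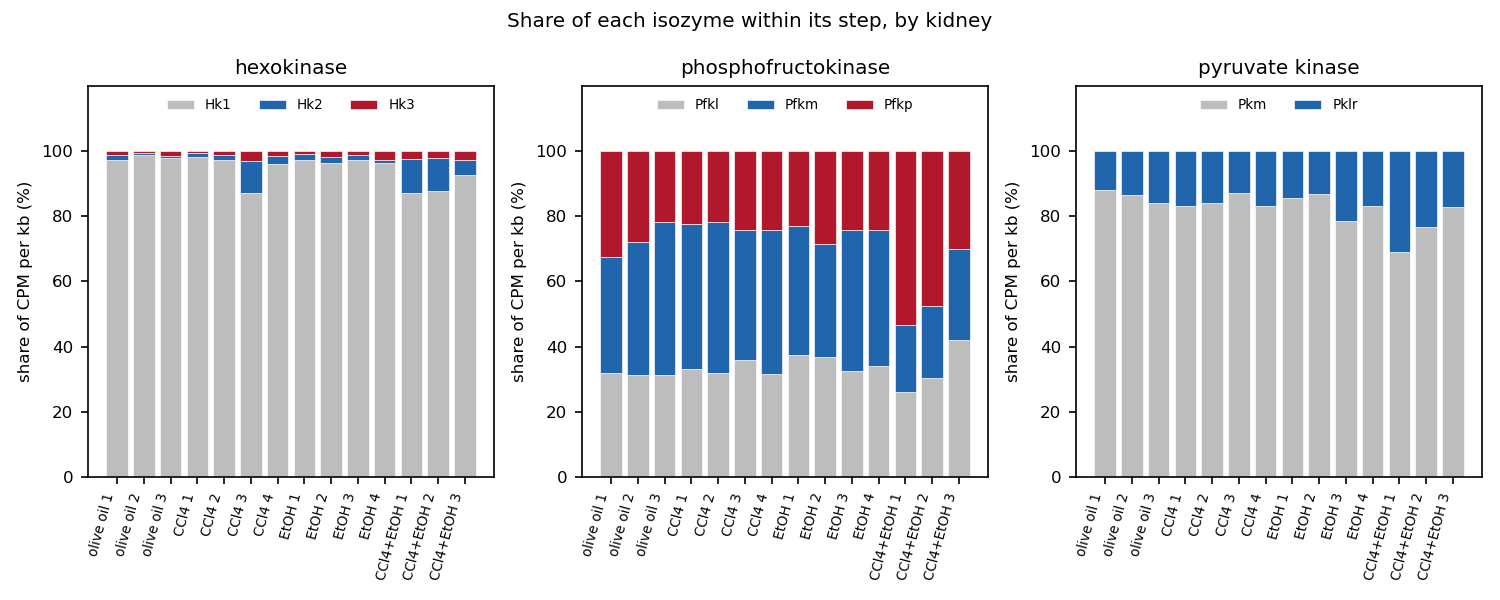
Share of each isozyme in the summed CPM per kilobase of its step, in percent, for hexokinase, phosphofructokinase and pyruvate kinase, with 1 bar per library. In CCl4+EtOH the Hk2, Pfkp and Pklr parts are widest in replicates 1 and 2, and CCl4 replicate 3 has a wide Hk2 part.

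The reversible steps serve both directions. Of their 9 genes 1 rose and 1 fell in CCl4+EtOH vs olive oil, with a median of -0.23. Pgk1, phosphoglycerate kinase, stood at 216, 225 and 231 CPM after olive oil, 204, 212, 211 and 225 after CCl4, 201, 215, 212 and 229 after EtOH, and 170.0, 140.5 and 211 after CCl4+EtOH. CCl4+EtOH replicates 1 and 2 were below all other libraries and replicate 3 was just below olive oil, at -0.37 ± 0.12 (SE, adjusted p = 0.0272). The Pgk1 call was lost in the fit of only the groups compared and with the title number block. It was also lost without olive oil replicates 2 or 3 or CCl4+EtOH replicates 1 or 2. Eno2, the neuronal enolase, was low throughout, at 2.87, 2.69 and 1.62 CPM after olive oil, 2.18, 3.01, 2.13 and 2.13 after CCl4, 2.63, 2.08, 2.11 and 4.12 after EtOH, and 6.95, 6.90 and 3.88 after CCl4+EtOH. The CCl4+EtOH replicates 1 and 2 were above all others, and the change was 1.30 ± 0.31 (SE, adjusted p = 0.00618).

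Other enzymes of these steps did not pass edgeR's test in CCl4+EtOH vs olive oil. DESeq2 called Tpi1 there, and limma-voom called Aldoa, Tpi1, Gpi1, Pgam1 and Gapdh, all as lower. Aldoa, aldolase A, stood at 874, 871 and 709 CPM after olive oil, 821, 772, 718 and 684 after CCl4, 752, 760.0, 887 and 821 after EtOH, and 536, 638 and 918 after CCl4+EtOH. Tpi1, triose phosphate isomerase, stood at 571, 596 and 564 CPM after olive oil, 533, 552, 555 and 550.1 after CCl4, 540.3, 562, 557 and 599.7 after EtOH, and 428, 365 and 597 after CCl4+EtOH. Gpi1, glucose phosphate isomerase, stood at 426, 441 and 399 CPM after olive oil, 452, 423, 375 and 385 after CCl4, 373, 375, 389 and 367 after EtOH, and 293, 329.7 and 459.9 after CCl4+EtOH. In all 3 of these genes CCl4+EtOH replicates 1 and 2 were the lowest libraries of the study, while replicate 3 was higher than every olive oil library.

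Pgam1, phosphoglycerate mutase, followed that order at 119.6, 116 and 112 CPM after olive oil, 106, 109, 102 and 112 after CCl4, 124, 115, 134 and 134 after EtOH, and 98.5, 80.7 and 128 after CCl4+EtOH. Aldoc, aldolase C, ranged from 12.9 to 15.2 CPM after olive oil and 7.98 to 12.5 CPM after CCl4+EtOH. Without CCl4+EtOH replicate 3 Aldoa, Tpi1, Gpi1, Pgam1 and Gapdh were called lower in CCl4+EtOH vs olive oil.

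Gapdh, the usual reference gene, was counted low, at 25.3, 26.9 and 25.3 CPM after olive oil, 29.0, 21.8, 23.9 and 22.6 after CCl4, 23.8, 23.8, 30.8 and 30.9 after EtOH, and 19.7, 19.0 and 27.2 after CCl4+EtOH. That is 18.2 CPM per kilobase after olive oil, against 359 for Tpi1 and 123 for Pgk1 in the same chain of reactions. Gapdh has many processed pseudogenes in mouse, and its level is uncertain because the treatment of reads that match several places is unknown.

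Eno1, the main enolase, stood at 269.9, 285 and 261.9 CPM after olive oil, 297, 290.0, 279 and 259.6 after CCl4, 322, 344, 398 and 422 after EtOH, and 346, 285 and 368 after CCl4+EtOH. All 4 EtOH libraries lay above all olive oil and CCl4 libraries, with a log2 change of 0.45 ± 0.11 (SE, adjusted p = 0.123). Against olive oil the CCl4+EtOH change was 0.29 ± 0.12 (SE, adjusted p = 0.0772). The row Gm5506, a retrogene copy of Eno1 named here for that reason, held 166125 counts over all libraries and Eno1 89036. The treatment of reads that match both is unknown, so whether these rows are cleanly separated cannot be told. The summed level of both was 784 ± 29.9 CPM (SD, n = 3) after olive oil, 807 ± 45.0 (n = 4) after CCl4, 1058 ± 125 (n = 4) after EtOH and 957 ± 127 (n = 3) after CCl4+EtOH, and Gm5506 alone changed by 0.29 ± 0.13 (SE, adjusted p = 0.0888) in CCl4+EtOH vs olive oil.

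Among the enzymes used only by gluconeogenesis Fbp1 and Slc37a4 fell, and Pck2 and Fbp2 rose. Fbp1, the fructose bisphosphatase of liver and kidney, stood at 938, 1147 and 1321 CPM after olive oil, 1241, 1102, 1155 and 1276 after CCl4, 1208, 1108, 1145 and 1228 after EtOH, and 499.6, 649 and 1007 after CCl4+EtOH. CCl4+EtOH replicates 1 and 2 were the lowest libraries of all, and replicate 3 was inside the olive oil range. Fbp1 fell in CCl4+EtOH vs olive oil, at -0.66 ± 0.20 (SE, adjusted p = 0.0222), and at -0.99 without replicate 3 (adjusted p = 8.1e-05). With the title number block the adjusted p was 0.122. The Fbp1 call was also lost in the fit of only the groups compared, and without olive oil replicates 2 or 3 or CCl4+EtOH replicates 1 or 2.

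Slc37a4, the carrier that brings glucose-6-phosphate to glucose-6-phosphatase, stood at 273.7, 313 and 342 CPM after olive oil, 304, 286, 282 and 301 after CCl4, 267, 251, 342 and 369 after EtOH, and 151, 168 and 244 after CCl4+EtOH. All 3 CCl4+EtOH libraries were the lowest of the study. It changed by -0.72 ± 0.18 (SE, adjusted p = 0.00662) against olive oil, -0.71 ± 0.17 (SE, adjusted p = 0.0057) against EtOH and -0.65 ± 0.17 (SE, adjusted p = 0.00908) against CCl4. Its partner G6pc, the catalytic subunit, varied widely within groups, at 305, 749 and 512 CPM after olive oil, 514, 608, 838 and 883 after CCl4, 980.1, 873, 446 and 759.9 after EtOH, and 190.0, 337 and 758 after CCl4+EtOH. The lowest library was CCl4+EtOH replicate 1 and the groups overlapped, with a log2 change of -0.28 ± 0.45 (SE, adjusted p = 0.654).

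Pck1, the cytosolic PEP carboxykinase and the classical rate-setting enzyme, stood at 1652, 2486 and 4513 CPM after olive oil, 4108, 2914, 2215 and 4339 after CCl4, 5602, 4652, 7177 and 2923 after EtOH, and 1044, 1726 and 2201 after CCl4+EtOH. The olive oil libraries alone spread from 1652 to 4513 CPM. The change was -0.80 ± 0.41 (SE, adjusted p = 0.143) against olive oil, -1.62 ± 0.40 (SE, adjusted p = 0.00772) against EtOH and -1.03 ± 0.39 (SE, adjusted p = 0.0534) against CCl4, and only the change against EtOH passed. EtOH replicates 1 to 3, which hold adrenal transcripts, were above replicate 4, and the part of that tissue in their values was not tested. Without those 3 libraries the change against EtOH was -0.83 with an adjusted p of 0.333, with the spread of EtOH replicate 4 taken from the other groups.

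Pcx, pyruvate carboxylase, which starts gluconeogenesis from pyruvate, stood at 662, 872 and 938 CPM after olive oil, 1118, 1051, 937 and 1114 after CCl4, 915, 723, 939 and 924 after EtOH, and 256, 304 and 904 after CCl4+EtOH. Replicates 1 and 2 of CCl4+EtOH were far below all other libraries, and replicate 3 lay inside the olive oil range. The change was -0.76 ± 0.35 (SE, adjusted p = 0.113) in CCl4+EtOH vs olive oil and -1.56 without replicate 3 (adjusted p = 4.08e-06). Against CCl4 it changed by -1.11 ± 0.34 (SE, adjusted p = 0.022), and by -1.92 without CCl4+EtOH replicate 3 (adjusted p = 5.28e-07). That call was lost in the fit of only the groups compared, without CCl4+EtOH replicates 1 or 2, and with the title number as a block (adjusted p = 0.0518).

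Both isozymes that rose made up a small part of their step. Pck2, the mitochondrial PEP carboxykinase, stood at 14.9, 16.9 and 11.4 CPM after olive oil, 20.5, 19.3, 14.4 and 15.4 after CCl4, 19.0, 15.7, 15.9 and 16.35 after EtOH, and 24.7, 23.4 and 19.6 after CCl4+EtOH. CCl4+EtOH replicates 1 and 2 were above all other libraries, and the rise was 0.64 ± 0.16 (SE, adjusted p = 0.00773). Fbp2, the muscle fructose bisphosphatase, stood at 15.6, 19.2 and 8.34 CPM after olive oil, 24.97, 25.3, 15.9 and 16.5 after CCl4, 26.7, 19.7, 33.6 and 22.6 after EtOH, and 22.7, 23.5 and 36.8 after CCl4+EtOH. CCl4+EtOH lay above olive oil, while EtOH and CCl4 libraries reached into its range, and the rise of 0.94 ± 0.30 (SE, adjusted p = 0.0289) was lost without CCl4+EtOH replicate 3 (adjusted p = 0.104). The Fbp2 call was also lost in the fit of only the groups compared, with limma-voom and without olive oil replicates 1 or 3. Per kilobase Pck2 made up 0.51 to 1.35% of PEP carboxykinase and Fbp2 3.8 to 4.72% of fructose bisphosphatase after CCl4+EtOH, against 0.15 to 0.52% and 0.68 to 1.79% after olive oil.

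**Figure D3:**
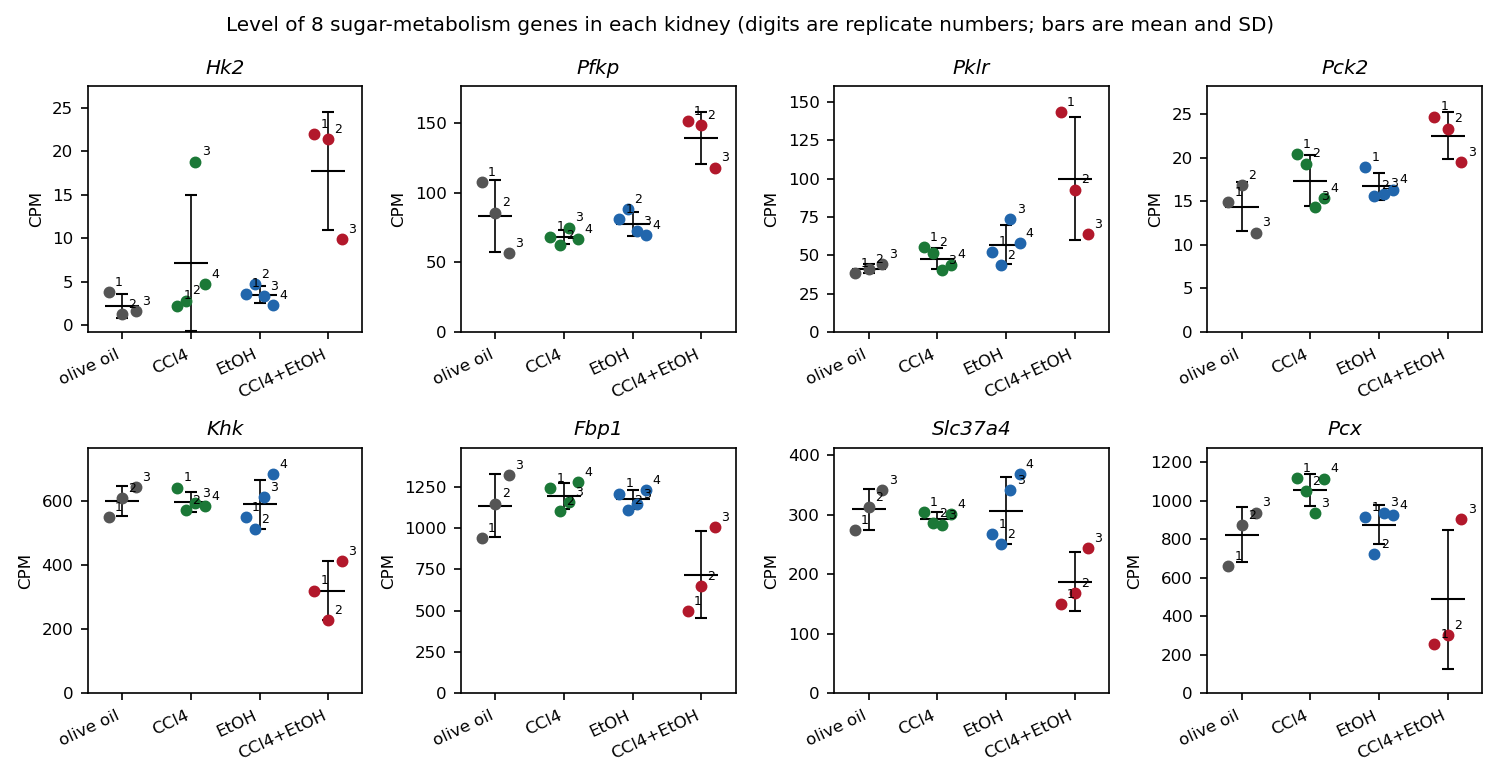
CPM (linear axis) of 8 genes in each library, with replicate numbers beside the points and bars for mean and SD. The CCl4+EtOH mean is the highest of all groups for Hk2, Pfkp, Pklr and Pck2 and the lowest for Khk, Fbp1 and Slc37a4. Of these genes only Pfkp, Khk and Slc37a4 have every CCl4+EtOH library beyond all other libraries. Pcx is low in CCl4+EtOH replicates 1 and 2 and at 904 CPM in replicate 3.

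Setting the directions against each other, each gene was expressed as the difference of log2(CPM + 0.5) from its mean over the olive oil libraries, and averaged over its role. This is a description of genes chosen by name, with no test. Committed glycolytic genes averaged 0.69, 0.66 and 0.63 in CCl4+EtOH replicates 1 to 3, above the -0.11 to 0.21 of olive oil, 0.03 to 0.49 of CCl4 and 0.19 to 0.29 of EtOH. Gluconeogenic genes averaged -0.73, -0.40 and 0.27 in the same libraries, against -0.26 to 0.20 after olive oil, 0.13 to 0.38 after CCl4 and 0.26 to 0.50 after EtOH. Fbp2 and Pck2, small parts of their steps, count in this mean like the main isozymes, and Fbp2 was highest in replicate 3. The gluconeogenic mean without Fbp2 and Pck2 was not taken. Hk2, a gene of a few CPM, carried much of the committed mean, at 3.16, 3.12 and 2.05 in CCl4+EtOH replicates 1 to 3 and 2.94 in CCl4 replicate 3. Without Hk2, an alternative chosen after seeing the data, the mean of the other 7 genes was 0.33, 0.31 and 0.42 in CCl4+EtOH replicates 1 to 3. It was 0.13 in CCl4 replicate 3 and ran from -0.11 to 0.20 over the 11 libraries of the other groups. Hk3, also a gene of a few CPM, is among these 7 genes, and the mean without Hk3 was not taken. The gluconeogenic mean was low in replicates 1 and 2, where proximal tubule markers were also low. The gap between both means was 1.41, 1.06 and 0.36 in CCl4+EtOH replicates 1 to 3, and CCl4 replicate 3, at 0.36, and olive oil replicate 1, at 0.47, reached the last value.

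**Figure D4:**
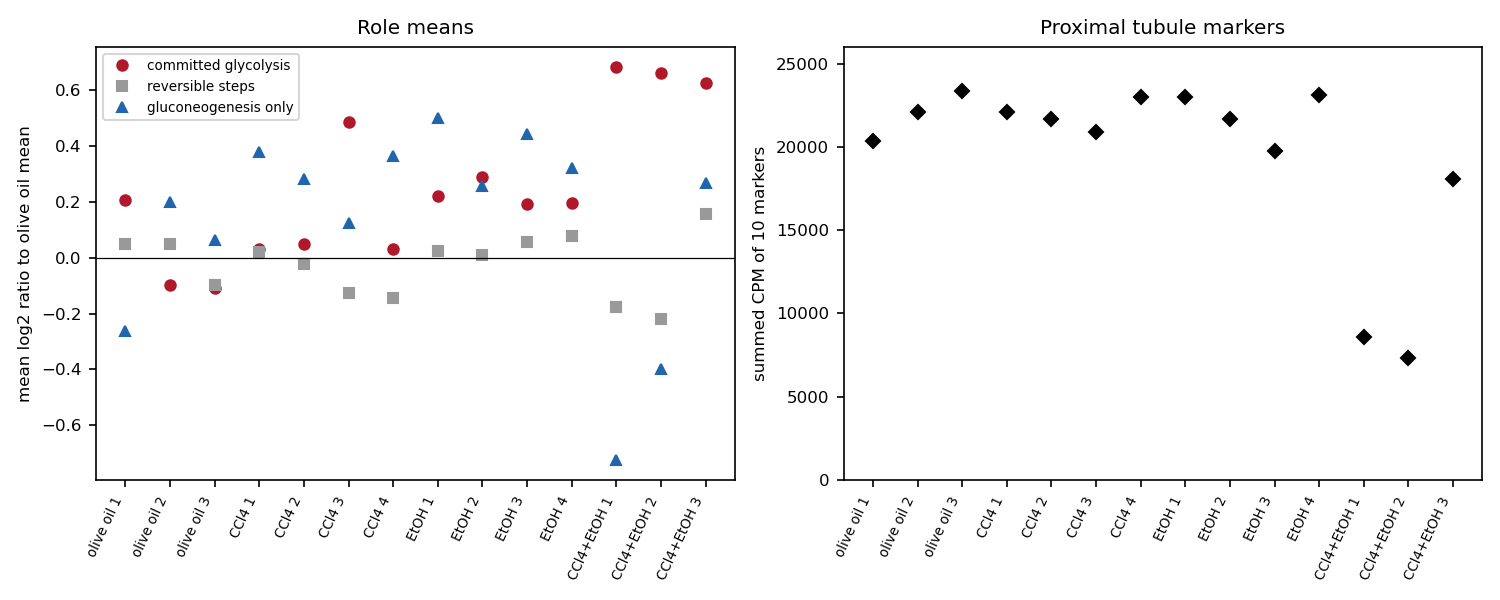
Left, mean log2 ratio to the olive oil mean for committed glycolysis, reversible steps and gluconeogenesis in each library. Right, summed CPM of the 10 proximal tubule markers in the same libraries. Committed genes are high in all 3 CCl4+EtOH libraries, while gluconeogenic genes and tubule markers are low in replicates 1 and 2, with 8574 and 7315 CPM of markers.

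Lactate dehydrogenase genes did not pass edgeR's test in any comparison. Ldhb was called higher in CCl4+EtOH vs EtOH by DESeq2, by limma-voom, with upper-quartile factors and without CCl4+EtOH replicate 3. Ldhb, the heart type that dominates here, stood at 952, 1054 and 955 CPM after olive oil, 976, 971, 910.0 and 937 after CCl4, 811, 816, 848 and 876 after EtOH, and 1019, 1051 and 874 after CCl4+EtOH. Ldha, the type linked to lactate production, stood at 469, 470.1 and 472 CPM after olive oil, 455, 460.0, 487 and 514 after CCl4, 447, 451, 390.1 and 421 after EtOH, and 515, 333 and 506 after CCl4+EtOH. In CCl4+EtOH replicate 2 Ldha was the lowest library of the study and replicates 1 and 3 were above all olive oil libraries. Log2 changes against olive oil were -0.01 ± 0.11 (SE, adjusted p = 0.957) for Ldhb and -0.06 ± 0.14 (SE, adjusted p = 0.768) for Ldha. Slc16a3, the lactate exporter of glycolytic cells, was near the lower limit of the data, at 1.06 to 1.46 CPM after olive oil, 1.08 to 2.07 after CCl4, 1.29 to 2.66 after EtOH and 2.29 to 4.17 after CCl4+EtOH, and rose by 1.34 ± 0.35 (SE, adjusted p = 0.00974). With the title number block its change was 0.68 (adjusted p = 0.28).

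Of the 2 glucose carriers edgeR, DESeq2 and limma-voom called 0 in any comparison with olive oil. At an unadjusted p under 0.05 in edgeR there was 1 in CCl4, 0 in EtOH and 0 in CCl4+EtOH, each against olive oil. Slc2a1, GLUT1, the carrier of glycolytic segments, stood at 63.5, 65.9 and 56.6 CPM after olive oil, 53.6, 52.2, 49.1 and 48.3 after CCl4, 58.0, 61.8, 63.9 and 63.3 after EtOH, and 70.9, 73.6 and 49.9 after CCl4+EtOH. All CCl4 libraries of Slc2a1 lay below all olive oil libraries. Slc2a1 passed edgeR's test in CCl4+EtOH vs CCl4, by 0.35 ± 0.11 (SE, adjusted p = 0.0241), where CCl4+EtOH replicate 3 lay inside the CCl4 range. That call was lost in the fit of only the groups compared and with the title number block (adjusted p = 0.0516). It was also lost without EtOH replicates 1 to 3, where the log2 change was 0.34. The same held without CCl4 replicates 3 or 4 or CCl4+EtOH replicates 1 or 2. Without CCl4+EtOH replicate 3 Slc2a1 was called higher against all 3 groups. Slc2a2, GLUT2, the basolateral carrier by which the proximal tubule releases glucose, stood at 151, 209 and 224 CPM after olive oil, 252, 286, 219 and 219 after CCl4, 322, 170.2, 351 and 267 after EtOH, and 251, 157 and 308 after CCl4+EtOH. Its groups overlapped, at 0.29 ± 0.27 (SE, adjusted p = 0.42) against olive oil.

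Khk, ketohexokinase, which brings fructose into the pathway in the proximal tubule, was lower in every CCl4+EtOH library than in any other library. It stood at 549.8, 608 and 642 CPM after olive oil, 641, 571, 591 and 582 after CCl4, 548, 510.3, 611 and 683 after EtOH, and 319.8, 228 and 412 after CCl4+EtOH. The means were 600.1 ± 46.8 CPM (SD, n = 3) after olive oil and 320.0 ± 92.0 CPM (SD, n = 3) after CCl4+EtOH. Khk changed by -0.91 ± 0.17 (SE, adjusted p = 0.00173) against olive oil, -0.88 ± 0.17 (SE, adjusted p = 0.0017) against EtOH and -0.90 ± 0.17 (SE, adjusted p = 0.00132) against CCl4.

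Switch genes set the flux between both directions. Pdk2, a kinase that shuts pyruvate dehydrogenase, stood at 218, 295 and 282 CPM after olive oil, 356, 292, 233 and 284 after CCl4, 291, 273.8, 267 and 275.7 after EtOH, and 92.1, 140.5 and 217 after CCl4+EtOH. All CCl4+EtOH libraries were below all others, and Pdk2 changed by -0.82 ± 0.24 (SE, adjusted p = 0.0168). The Pdk2 call was lost in the fit of only the groups compared and with the title number block. It was also lost without olive oil replicates 2 or 3 or CCl4+EtOH replicates 1 or 2. Pdk1, the hypoxia-responsive kinase, stood at 52.3, 44.9 and 57.9 CPM after olive oil, 73.2, 69.7, 55.6 and 58.3 after CCl4, 68.1, 51.5, 65.5 and 60.5 after EtOH, and 43.6, 52.7 and 90.5 after CCl4+EtOH. Its highest library was CCl4+EtOH replicate 3, and its change of 0.27 ± 0.22 (SE, adjusted p = 0.357) did not pass.

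The PFKFB enzymes make and break fructose 2,6-bisphosphate, the signal that turns glycolysis on. Pfkfb4 stood at 18.5, 19.4 and 16.7 CPM after olive oil, 17.6, 18.0, 13.9 and 13.1 after CCl4, 12.0, 12.5, 12.8 and 12.4 after EtOH, and 14.5, 13.9 and 12.0 after CCl4+EtOH. It was lower in all EtOH and CCl4+EtOH libraries, and in CCl4 replicates 3 and 4, than in all olive oil libraries. These CCl4 libraries had the 10-week course without ethanol, while CCl4 replicates 1 and 2, with 6 weeks, lay inside the olive oil range. The change was -0.43 ± 0.13 (SE, adjusted p = 0.018) in CCl4+EtOH and -0.56 ± 0.12 (SE, adjusted p = 0.0736) in EtOH, of which only the former passed in edgeR. With the title number block the CCl4+EtOH change was -0.23 (adjusted p = 0.343). Pfkfb3, the inducible form, stood at 34.6, 22.8 and 27.7 CPM after olive oil, 33.5, 28.8, 45.0 and 28.9 after CCl4, 54.8, 33.6, 32.0 and 27.3 after EtOH, and 36.2, 40.1 and 51.2 after CCl4+EtOH. Its CCl4+EtOH libraries lay above olive oil, at 0.59 ± 0.25 (SE, adjusted p = 0.0858), and EtOH replicate 1 was the highest of all. Pfkfb2, the main form per kilobase, overlapped between groups, with 51.1 to 56.5 CPM after olive oil and 44.5 to 55.7 after CCl4+EtOH, and Pfkfb1 ranged from 1.68 to 4.56 CPM over all libraries.

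**Figure D5:**
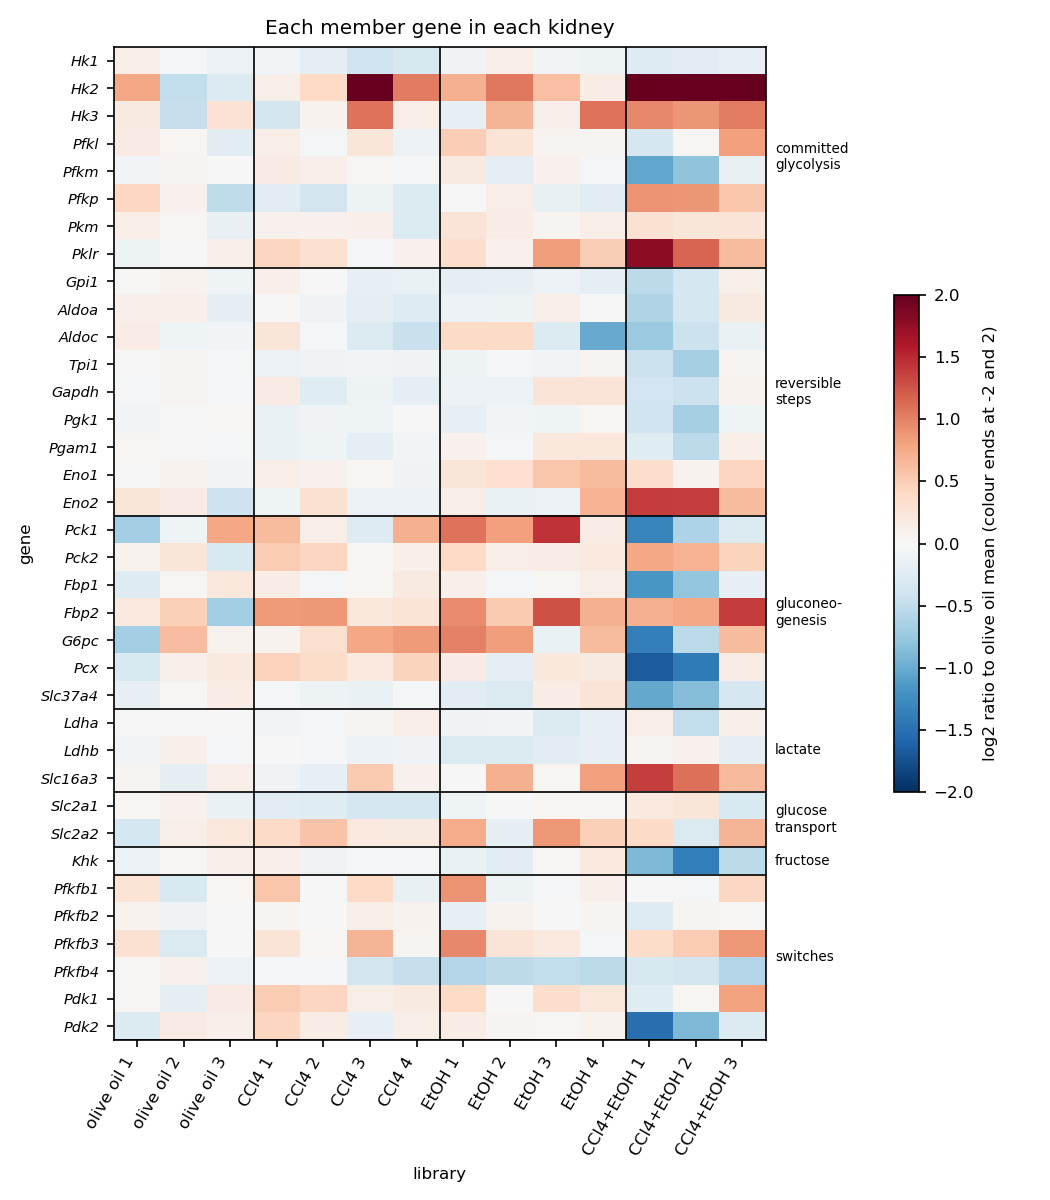
Log2 ratio of each gene (rows, by role) to its olive oil mean in each of the 14 libraries (columns), with 0.5 CPM added and colours ending at -2 and 2. The columns of CCl4+EtOH replicates 1 and 2 look alike, and replicate 3 is closer to the controls for Pcx, Fbp1 and Pdk2.

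CCl4+EtOH replicate 3 was the library of its group nearest to the olive oil mean for 12 of the 14 called members, or 85.7%, and for 80.7% of all genes called. The exceptions were Fbp2 and Pfkfb4. It lay inside the olive oil range for 1 of the 14 called members, Fbp1, or 7.14%, against 8.9% of all genes called. Over all 36 members it did so for 4, Fbp1, Pck1, Pcx and Pfkfb2, or 11.1%, against 32.6% of all genes tested.

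With ethanol in both groups, CCl4+EtOH vs EtOH called 12 members, 33.3% against a background of 34.2% (18.1% higher and 16.2% lower). Hk2, Pfkp, Pklr, Eno2 and Pck2 rose, and Pck1, Fbp1, Slc37a4, Khk, Pdk2, Pfkm and Pgk1 fell. Without EtOH replicates 1 to 3 only Khk was called, as lower, at a background of 2%, with 1 EtOH library left. Without CCl4+EtOH replicate 3 the counts were 8 higher and 14 lower, without replicate 1 they were 2 and 5, and without replicate 2 they were 3 and 4. The backgrounds were 45.2%, 20% and 19.6% in that order.

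With CCl4 in both groups, CCl4+EtOH vs CCl4 called 11 members, 30.6% against 34.8% of all genes (18.7% higher and 16.2% lower). The CCl4 group mixes 6-week and 10-week libraries, so course length is mixed with ethanol here too. Pfkp, Pklr, Eno2, Slc16a3 and Slc2a1 rose, and Pcx, Fbp1, Slc37a4, Khk, Pdk2 and Pfkm fell. The counts were 6 higher and 14 lower without CCl4+EtOH replicate 3, and 3 each without replicate 1, at backgrounds of 45.1% and 21.3%. This comparison and the others share libraries, so their calls are not independent.

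The interaction asks whether the change with CCl4 in mice given ethanol differed from that in mice without it. Both ethanol groups had 10 weeks, while olive oil and CCl4 replicates 1 and 2 had 6 weeks and CCl4 replicates 3 and 4 had 10. Ethanol therefore cannot be told apart from course length and the continued CCl4 dose in it. Among 36 members 2 passed, 5.56% against a background of 9.12% (5.49% higher and 3.63% lower). Pfkp differed by 1.13 ± 0.24 (SE, adjusted p = 0.0177) and Khk by -0.87 ± 0.23 (SE, adjusted p = 0.036). Both were lost without CCl4+EtOH replicate 1 or 2 and without EtOH replicates 1 to 3, and Khk also without 1 of several control libraries, namely olive oil replicates 1 or 2, any CCl4 replicate, and EtOH replicates 3 or 4. Without CCl4+EtOH replicate 3 there were 5 higher and 12 lower members, at a background of 29.8%.

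Genes around the pathway were read from lists chosen by function. In CCl4+EtOH vs olive oil, of 11 genes of mitochondrial pyruvate entry and oxidation 9 fell and 0 rose, 81.8% against 16.6% of all genes called lower, with a median of -0.68 beside 0.02 over all genes. Beside these lists, 6 of 10 proximal tubule markers fell, with a median of -1.04, and their part in the counts was not tested. Mpc1, a subunit of the mitochondrial pyruvate carrier, fell from 171 ± 13.7 to 82.4 ± 16.6 CPM (SD, n = 3 each), at -1.06 ± 0.13 (SE, adjusted p = 0.000131). Dlat and Pdhx, core and binding subunits of pyruvate dehydrogenase, changed by -0.71 ± 0.13 and -0.63 ± 0.10, and Pdk3, a kinase that inhibits the complex, by -0.98 ± 0.17, with adjusted p of 0.00129, 0.000666 and 0.00115 in edgeR.

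Of 6 genes of fructose, polyol and glyoxylate handling 4 fell, 66.7% against 16.6% of all genes called lower, with a median of -0.93. Sord, which makes fructose from sorbitol, stood at 1518 ± 162 CPM after olive oil and 709 ± 340.3 after CCl4+EtOH (SD, n = 3 each), a change of -1.10 ± 0.24 (SE, adjusted p = 0.00345). Grhpr, Agxt2 and Glyctk, enzymes of glyoxylate and glycerate, changed by -0.97 ± 0.22, -1.05 ± 0.22 and -0.90 ± 0.24, with adjusted p of 0.00403, 0.00311 and 0.012 in edgeR.

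Among 12 genes that lead glutamine and other carbon to glucose 7 fell, 58.3% against 16.6% of all genes called lower, with a median of -0.50. Mdh1 and Mdh2, the malate dehydrogenases, changed by -0.80 ± 0.16 and -0.58 ± 0.13, Got1, an aspartate transaminase, by -0.42 ± 0.11 and Gpt, an alanine transaminase, by -0.92 ± 0.26, with adjusted p of 0.00204, 0.00408, 0.00872 and 0.0144 in edgeR.

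Of 11 sugar and monocarboxylate transporters 2 rose and 3 fell, 45.5% called against 35.4% of all genes. The sodium-glucose carrier Slc5a1 rose by 0.71 ± 0.18 (SE, adjusted p = 0.0075). Slc5a10, a mannose and fructose carrier, rose by 0.97 ± 0.21 (SE, adjusted p = 0.00348) in CCl4+EtOH and by 1.53 ± 0.21 (SE, adjusted p = 0.0121) in EtOH in edgeR. No other gene of these lists passed edgeR's test in EtOH vs olive oil, while DESeq2 called 3 more (1 in the pyruvate, 1 in the glutamine and 1 in the regulator list) and limma-voom 2 more (1 in the pyruvate and 1 in the glutamine list). Backgrounds in EtOH vs olive oil were 2.17% with DESeq2 and 1.56% with limma-voom. Slc5a8, a lactate carrier, changed by -1.01 ± 0.21 (SE, adjusted p = 0.0028) and the urate carrier Slc2a9 by -0.90 ± 0.26 (SE, adjusted p = 0.0179).

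Of 14 other isozymes tested 1 rose and 5 fell, 42.9% called against 35.4% of all genes. Ldhd, the D-lactate dehydrogenase, fell from 1243 ± 177 to 407 ± 62.0 CPM (SD, n = 3 each), at -1.61 ± 0.24 (SE, adjusted p = 0.00042). G6pc3, a widely expressed glucose-6-phosphatase, changed by -0.40 ± 0.08, and the phosphoglucomutases Pgm1 and Pgm2 by 0.66 ± 0.14 and -0.80 ± 0.20, with adjusted p of 0.00167, 0.00315 and 0.00659 in edgeR. In the pentose phosphate pathway edgeR called 0 of 8 genes, with 2 at an unadjusted p under 0.05, while DESeq2 and limma-voom each called 1 higher and 1 lower. The backgrounds of these tools were 38.6% and 46%.

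Regulators and targets moved both ways. Of 22 regulators 3 rose and 4 fell. Myc, which drives glycolytic genes, changed by 2.23 ± 0.51 (SE, adjusted p = 0.00505) and the glucose sensor Mlxip by 0.53 ± 0.10 (SE, adjusted p = 0.00136), while Mlxipl, or ChREBP, changed by -0.44 ± 0.13 (SE, adjusted p = 0.0159) and the parathyroid hormone receptor Pth1r by -0.90 ± 0.23 (SE, adjusted p = 0.0082). Of 13 known hypoxia targets 3 rose and 3 fell. Ankrd37 changed by 1.67 ± 0.45 (SE, adjusted p = 0.0106), Kdm3a by 0.34 ± 0.08 (SE, adjusted p = 0.00481) and Car9 by -1.56 ± 0.38 (SE, adjusted p = 0.00687). Percentages called were 31.8% and 46.2% in these lists, against the same background of 35.4%.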

How the data were processed

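Kidney RNA was sequenced, and the authors deposited raw counts per gene and library, aligned with GSNAP to mm9 per the submitters' processing notes. Not given in the sources used here: versions, the counter, its gene annotation, strand setting and treatment of reads with several matches. One olive oil sample is not analysed here. Of 23893 rows, 27 carry a date in place of a symbol (0.168 to 0.209% of counts) and were left out.

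Genes were filtered with filterByExpr, scaled by TMM and tested with edgeR 4.0.16 (robust quasi-likelihood test, 14 libraries in 4 groups, R 4.3.3), with DESeq2 1.42.0 and limma 3.58.1 (voom with quality weights) as alternatives. SE was taken as log2 change over root F. Other alternatives were the scaling, the filter, the groups in the fit, a title number block and each library left out. Levels per kilobase used the longest coding transcript of a GENCODE annotation of GRCm38, which is not the counts' own, and start regions are from RefSeq.

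The members and gene lists were chosen with earlier results of these data known. Given in full are the main isozyme of each step and members called in any comparison whose higher group averages 5 CPM or more. Of each other list up to 4 genes with the smallest adjusted p in CCl4+EtOH vs olive oil, and up to 2 in EtOH vs olive oil, are named, except for an item that is not reported here. In simulated data for CCl4+EtOH vs olive oil with 16105 genes, 67 genes were changed 1.5-fold, 67 were changed 2-fold and 66 were changed 4-fold. The test recovered 34.3%, 52.2% and 83.3% of them, with 7 of 120 calls false. In the real comparison 35.4% of all genes were called, so these rates need not hold there.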

Additional observations from a re-analysis of the deposited data

Results flagged for a closer look

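In 5 of 72 sets of 4 libraries, a number near the 1 in 20 that chance gives, 1 library stood far from the other 3 of its group. Hk2 was at 18.8 CPM in CCl4 replicate 3, against 2.23 to 4.68 CPM in the other CCl4 libraries. Pkm was at 180.0 CPM in CCl4 replicate 4, against 229.8 to 232 CPM. Eno2 was at 3.01 CPM in CCl4 replicate 2, against 2.13 to 2.18 CPM. In the EtOH group Pcx was at 723 CPM in replicate 2, against 915 to 939 CPM, and Pfkfb1 was at 4.56 CPM in replicate 1, against 2.03 to 2.41 CPM.

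The change with CCl4 differed between mice with and without ethanol for 2 members in edgeR's interaction test, 5.56% against 9.12% of all genes. Course length also differed between mice with and without ethanol, and the test does not separate it from ethanol. Without EtOH replicates 1 to 3, which hold adrenal transcripts, 3 of 16777 genes were called in the interaction, and neither member was among them. The difference was 1.13 on the log2 scale for Pfkp and -0.87 for Khk. Among other genes of the pathway that the text names, it was 0.74 for Pgm1 (adjusted p = 0.0297), -1.20 for Agxt2 (adjusted p = 0.0271), -0.81 for Mpc1 (adjusted p = 0.0173) and -1.18 for Gpt (adjusted p = 0.0464), all from edgeR.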

How the results depend on the processing

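No paired analysis was possible because the title numbers are not shared between groups. Among values for single members under the planned settings, 333 of 376 kept their direction and side of the threshold, 42 no longer passed, 1 newly passed and 0 reversed. With 1 library left out, 522 of 588 kept both and 2 reversed: G6pc in CCl4+EtOH vs olive oil was at 0.07 without olive oil replicate 2 and at 0.08 without CCl4+EtOH replicate 1, within a range of -0.99 to 0.08. The other pathway genes kept both in 241 planned values and lost the call in 20, and with 1 library left out these numbers were 394 and 12.

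Counts of called members moved as follows, and the cause was not tested. The share of all genes called, the background, moved with them. In EtOH vs olive oil DESeq2 and limma-voom each called 1 higher and 1 lower, and the fit of only the groups compared called 1 lower. Their backgrounds were 2.17%, 1.56% and 0.607%. In CCl4+EtOH vs olive oil limma-voom called 13 lower, the fit of only these groups 3 lower, and the title number block 4 higher and 2 lower. Backgrounds were 46%, 21% and 19.2%, against 35.4% in the main fit. In CCl4+EtOH vs EtOH limma-voom called 13 lower, the fit of only these groups 4 lower, and the fit without EtOH replicates 1 to 3 called 0 higher and 1 lower. In CCl4+EtOH vs CCl4 limma-voom called 11 lower, at a background of 44.9%. For CCl4+EtOH vs EtOH the background was 43.6% with limma-voom and 21.5% in the fit of only the groups compared. For the interaction it was 9.16% with DESeq2 size factors, 10.1% with the stricter filter, 15.6% with DESeq2 and 30.1% with limma-voom. In the interaction DESeq2 size factors and the stricter filter each gave 2 lower, DESeq2 7 lower, limma-voom 4 higher and 12 lower, and the fit without EtOH replicates 1 to 3 gave 0 higher and 0 lower.

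With each library left out in turn, CCl4+EtOH vs olive oil ranged from 6 to 8 higher and 3 to 13 lower, at backgrounds of 24% to 45.2%. CCl4+EtOH vs EtOH ranged from 2 to 8 higher and 4 to 14 lower, and CCl4+EtOH vs CCl4 from 3 to 6 higher and 3 to 14 lower. Backgrounds ran from 19.6% to 45.2% in the former and from 21.3% to 45.1% in the latter. The interaction ranged from 0 to 5 higher and 0 to 12 lower, at backgrounds of 1.78% to 29.8%. EtOH vs olive oil stayed at 0 higher, with 0 to 1 lower, at backgrounds of 0.0183% to 0.939%. CCl4 vs olive oil stayed at 0 in both directions, at a background of 0%. The upper count of lower members came each time without CCl4+EtOH replicate 3. Genes near 1 CPM, such as Slc16a3 and Hk3, rest on few counts per library.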
